A study of Mus musculus with 19 samples.

Results

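This account follows 8 liver genes whose products carry out mitochondrial fatty acid oxidation and the making of ketone bodies: Cpt2, Slc25a20, Acadm, Acadl, Acadvl, Hadha, Hadhb and Bdh1. They were picked by gene name from a table of 55335 entries, 52110 of which carry a name. All 8 passed the filter on low values, among 10577 genes tested. The samples are 19 libraries of total RNA from livers of WT mice, in 4 groups. NC_sham (n = 5) was fed normal chow and sham treated, and NC_RIC (n = 5) was fed normal chow and received remote limb ischemic conditioning (RIC), in which blood flow to a limb is interrupted in brief cycles. CDAHFD_sham (n = 5) and CDAHFD_RIC (n = 4) had the same sham or RIC treatment on CDAHFD, a high-fat diet without choline and with defined amino acids that is used to model nonalcoholic steatohepatitis, a fatty liver with inflammation and scarring. The strain, age, sex, feeding state at harvest and day of handling of the mice are not given in the sources used here. The labels number the replicates without saying that each is a separate mouse, so a p-value measures the spread between these samples, which may be partly technical.

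As background, long-chain fatty acids reach the mitochondrial matrix as carnitine esters. The carrier encoded by Slc25a20 exchanges acylcarnitine for free carnitine across the inner membrane, and the enzyme encoded by Cpt2 turns acylcarnitine back into acyl-CoA. Each turn of beta-oxidation then begins with an acyl-CoA dehydrogenase, and very-long-, long- and medium-chain substrates are taken by the products of Acadvl, Acadl and Acadm. The trifunctional protein, built of Hadha and Hadhb subunits, performs the remaining steps for long chains. In hepatocytes the acetyl-CoA that results feeds ketone body synthesis, and Bdh1 interconverts acetoacetate and 3-hydroxybutyrate. The pathway is known to be induced by fasting through the receptor PPARalpha.

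Values are FPKM, sequenced fragments divided by gene length and by library size, which allow levels of different genes to be compared per length. Differences were taken on the log2(FPKM + 1) scale with limma, a linear model with moderated variances fitted to all 10577 genes. A gene is called where its Benjamini-Hochberg adjusted p is under 0.05, and "rose" or "fell" is used of such genes only. Depth, estimated from the step size of low values of single-exon genes, was 15.9 to 26.4 M reads per library. At that depth no member rested on fewer than about 1082 reads in any library, a counting error of 3.04%. The depth is an estimate, since only 24.4 to 28.4% of low values lay within 2% of a whole read, against 12% for an even spread. The labelled tissue was borne out by its markers: the 10 hepatocyte markers summed to 32760 to 68450 FPKM per library, while the 4 skeletal muscle markers summed to at most 0.37 FPKM and the 3 adipocyte markers to at most 0.0312 FPKM. CDAHFD_sham replicates 2 and 5 are described in earlier work on these data as standing apart from their group, so results that rest on them are also given without them.

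The diet comparisons depend on the scale. The median difference over all tested genes was 0.45 between CDAHFD_sham and NC_sham and 0.42 between CDAHFD_RIC and NC_RIC with the values as deposited. Of the genes called, 86.1% and 90.5% were higher on CDAHFD in these 2 comparisons. Quantile scaling brought these shares to 47.6% and 47.2%, and scaling by median ratios gave 50.7% in RIC mice and a near-even split in sham mice. Set against these medians, the differences of Acadl and Bdh1 were above 0.45 in sham mice and those of the other 6 genes below it. In RIC mice Cpt2 and Acadvl were below 0.42 and the other 6 above it. For RIC against sham the medians were -0.08 on CDAHFD and -0.06 on chow, and of the genes called, 31.9% and 27.2% were higher, against 55.8% and 62.2% by median ratios. The comparisons share groups (CDAHFD_sham and NC_sham each enter 2 of them), so their values are given side by side and are not independent of each other.

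Between diets in sham mice, Acadl and Bdh1 rose on CDAHFD and the other 6 genes did not pass the test. Acadl was 1.91-fold and Bdh1 2.07-fold higher in CDAHFD_sham than in NC_sham. None of the 8 fell. With 63.9% of all tested genes called higher and 10.3% called lower, 2 of 8 higher is below the background share. Among RIC-treated mice, 7 of 8 rose on CDAHFD, against a background of 63.6% called higher and 6.68% called lower, and Cpt2 did not pass. RIC against sham gave 1 call, Hadhb on CDAHFD, which was 1.48-fold higher with RIC. The plot of levels by sample shows these patterns gene by gene.

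**Figure D1:**
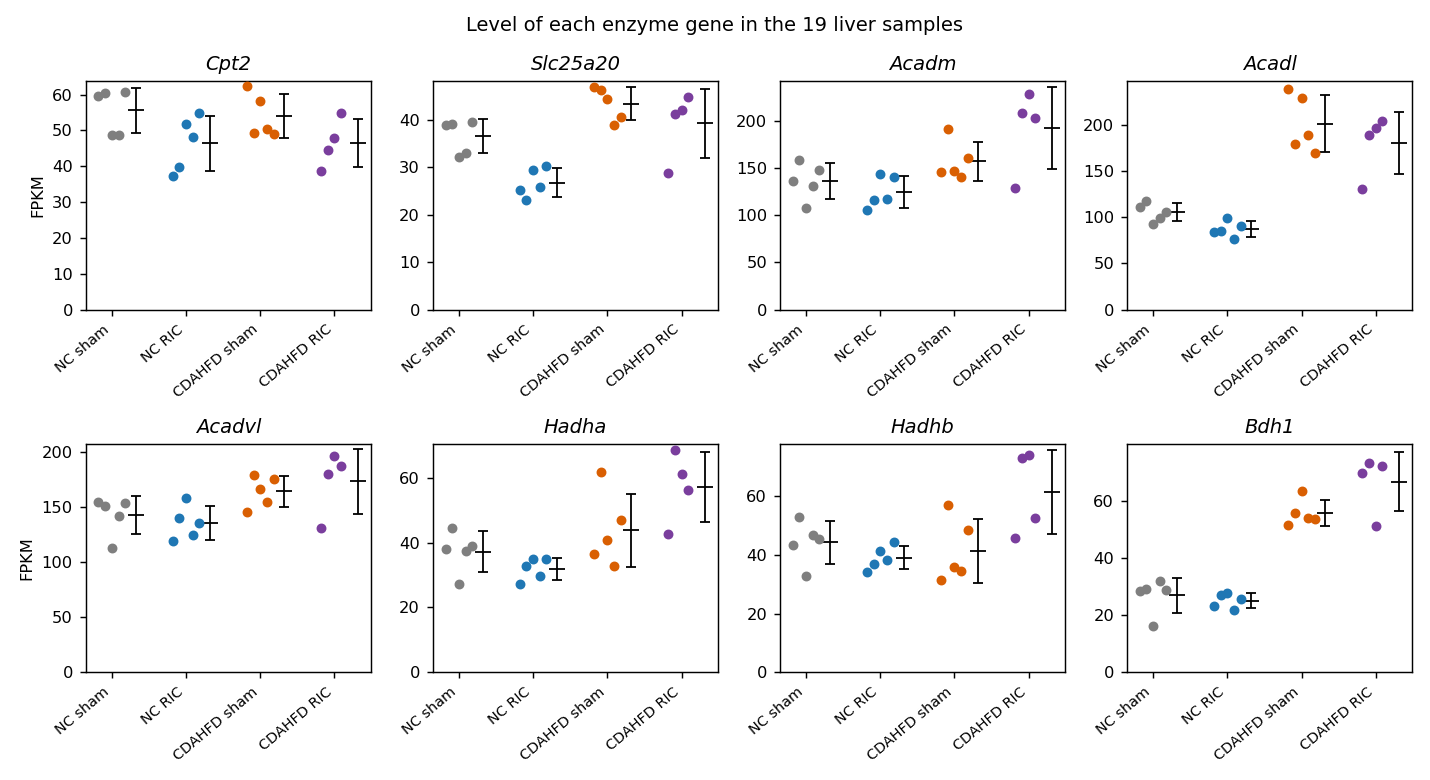
Level of each of the 8 genes in FPKM (vertical axes, from 0) in the 19 liver samples, by group, with replicates side by side in label order; the bar beside each group is the mean ± SD. Acadl and Bdh1 lie higher in all CDAHFD samples than in any chow sample, while the groups overlap for Cpt2.

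Of the carnitine shuttle genes, Cpt2 had overlapping levels in all groups, and Slc25a20 rose on CDAHFD in RIC mice. Cpt2 ranged over 48.7 to 60.6 FPKM in NC_sham, 37.2 to 54.9 in NC_RIC, 49.1 to 62.5 in CDAHFD_sham and 38.7 to 54.7 in CDAHFD_RIC. Group means were 55.6 ± 6.34, 46.4 ± 7.61, 53.9 ± 6.14 and 46.4 ± 6.69 FPKM (SD) in that order. The diet difference was -0.04 (SE 0.12, 95% interval -0.29 to 0.21, adjusted p = 0.75, limma) in sham mice and 0.01 (95% interval -0.26 to 0.27, adjusted p = 0.971, limma) in RIC mice. Of the 8 genes, Cpt2 is the 1 with no call in any of the 5 comparisons as deposited. Under median-ratio scaling it fell on CDAHFD in both, by 0.62 in sham mice and by 0.55 in RIC mice. By quantile scaling it fell in sham mice (-0.29, adjusted p = 0.0332, limma) and did not pass in RIC mice (-0.28, adjusted p = 0.0643, limma).

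Slc25a20, the carnitine-acylcarnitine carrier, measured 39.0, 39.0, 32.1, 33.1 and 39.5 FPKM in NC_sham. In NC_RIC it measured 25.1, 23.0, 29.4, 25.8 and 30.2 FPKM. Every NC_RIC sample thus lay below every NC_sham sample. The difference was -0.44 (SE 0.11, 95% interval -0.67 to -0.20) and did not pass after adjustment (adjusted p = 0.0617, limma). Groups that do not overlap in this direction occur for 3.75% of all tested genes. 3 settings gave a call, with adjusted p of 0.0452 for genes of at least 5 FPKM, 0.017 with array weights and 0.0253 without CDAHFD_RIC replicate 1.

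On CDAHFD, Slc25a20 measured 46.9, 46.2, 44.3, 38.9 and 40.5 FPKM in sham samples. In CDAHFD_RIC it measured 28.7, 41.2, 42.1 and 44.8 FPKM, where replicate 1 was the low sample. The carrier rose on CDAHFD in RIC mice by 0.52 (SE 0.12, adjusted p = 0.000703, limma). In sham mice the diet difference was 0.24 (SE 0.11, 95% interval 0.01 to 0.48, adjusted p = 0.0561, limma). It passed with common-sum scaling (adjusted p = 0.0312), in a fit of those 2 groups alone (0.0278), and without NC_sham replicate 5 (0.0497), CDAHFD_sham replicate 4 (0.0414) or CDAHFD_RIC replicate 1 (0.0187). By median ratios it was -0.33 and by quantile scaling -0.0677. By median ratios the difference in RIC mice was -0.0258 and did not pass. The ratio of Cpt2 to Slc25a20 within a library does not depend on library scaling. Its means were 1.52 ± 0.0303 in NC_sham, 1.73 ± 0.148 in NC_RIC, 1.24 ± 0.108 in CDAHFD_sham and 1.20 ± 0.118 in CDAHFD_RIC (SD). This ratio, like the others given below without a test, was chosen after the values were seen.

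The acyl-CoA dehydrogenases had the highest mean FPKM of the 8 genes in every group, and of these 3 Acadl differed most between diets. In NC_sham, Acadl measured 111, 118, 92.9, 99.7 and 106 FPKM. In CDAHFD_sham it measured 239, 179, 229, 189 and 169.95 FPKM. The lowest CDAHFD_sham sample was above the highest NC_sham sample, as for 52.4% of all tested genes. The difference was 0.92 (SE 0.12, 95% interval 0.66 to 1.18, adjusted p = 1.92e-06, limma).

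In NC_RIC, Acadl measured 84.3, 85.1, 99.4, 76.8 and 90.8 FPKM. In CDAHFD_RIC it measured 130.4, 189, 197 and 204 FPKM. These groups did not overlap either, and Acadl was 2.06-fold higher on CDAHFD (difference 1.02, SE 0.13, adjusted p = 1.59e-06, limma). Its RIC differences were -0.17 on CDAHFD (95% interval -0.44 to 0.10) and -0.27 on chow (95% interval -0.53 to -0.01), with adjusted p of 0.347 and 0.278 (limma). A processed pseudogene on the same strand, Gm15793, lies within Acadl and was listed at 0.605 to 4.3 FPKM. How reads of the pair were assigned is not given in the sources used here.

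Acadvl and Acadm moved less between diets than Acadl did. Acadvl ranged over 113 to 155 FPKM in NC_sham and 146 to 179 in CDAHFD_sham. The groups overlapped, and the difference of 0.20 (SE 0.12, 95% interval -0.04 to 0.44, adjusted p = 0.118, limma) did not pass. In RIC mice it ranged over 119 to 158 FPKM on chow and 130.5 to 196 on CDAHFD, and rose by 0.34 (SE 0.12, adjusted p = 0.0176, limma), less than the all-gene median of 0.42. By median ratios the difference was -0.22 and did not pass. The call was lost without CDAHFD_RIC replicate 3 (adjusted p = 0.0663) or replicate 4 (adjusted p = 0.055).

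Acadm ranged over 108 to 159 FPKM in NC_sham, 106 to 144 in NC_RIC, 141 to 191 in CDAHFD_sham and 129 to 228 in CDAHFD_RIC. Its diet difference was 0.21 (SE 0.14, 95% interval -0.09 to 0.51, adjusted p = 0.198, limma) in sham mice. In RIC mice it rose by 0.60 (SE 0.15, adjusted p = 0.00181, limma). Within CDAHFD the RIC difference of 0.27 did not pass (95% interval -0.05 to 0.58, adjusted p = 0.197, limma). Without CDAHFD_RIC replicate 1, the lowest of its group at 129 FPKM, it was 0.45 with an adjusted p of 0.0228.

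The balance of long- to medium-chain dehydrogenase differed between groups. The ratio of Acadl to Acadm was 0.781 ± 0.0589 in NC_sham and 0.705 ± 0.062 in NC_RIC (SD). It was 1.31 ± 0.305 in CDAHFD_sham, with a range of 0.938 to 1.64, and 0.946 ± 0.073 in CDAHFD_RIC. Part of that wide range lies with CDAHFD_sham replicates 2 and 5. They had the highest Acadm (160.0 and 191 FPKM, against 141 to 147 in the other 3 samples) and the lowest Acadl (169.95 and 179 FPKM, against 189 to 239).

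The trifunctional protein genes held the one difference between RIC and sham that passed. Hadhb measured 31.4, 56.9, 36.0, 34.4 and 48.5 FPKM in CDAHFD_sham. In CDAHFD_RIC it measured 45.7, 73.0, 74.1 and 52.6 FPKM. CDAHFD_RIC replicates 2 and 3 were above every CDAHFD_sham sample. The groups overlapped, since CDAHFD_sham replicate 2 exceeded CDAHFD_RIC replicates 1 and 4, and CDAHFD_sham replicate 5 exceeded CDAHFD_RIC replicate 1. The difference was 0.56 (SE 0.18, 95% interval 0.19 to 0.93, adjusted p = 0.0246, limma). Of all tested genes, 27.3% were called in this comparison and 8.72% were called higher, so 1 of 8 is near the background. The call ended with no filter on low values (adjusted p = 0.0557) and in a fit of those 2 groups alone (0.0812). It also ended without CDAHFD_sham replicate 1 (0.0648), 3 (0.0584) or 4 (0.0557), and without CDAHFD_RIC replicate 2 (0.0802) or 3 (0.0877). Without CDAHFD_sham replicates 2 and 5 the difference was 0.81. These were the highest of their group for Hadhb, so leaving them out raises the difference in itself.

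On chow, Hadhb measured 43.4, 52.8, 32.9, 47.0 and 45.4 FPKM in sham samples and 34.2, 36.8, 41.3, 38.4 and 44.3 FPKM with RIC. The difference was -0.17, with an adjusted p of 0.671 (limma). Whether RIC acted differently on the 2 diets was tested as an interaction. For Hadhb it was 0.73 (SE 0.24, 95% interval 0.22 to 1.23, adjusted p = 0.0734, limma) and did not pass. The settings under which it passed included leaving out CDAHFD_sham replicates 2 and 5 (0.98, adjusted p = 0.01) and array weights (adjusted p = 0.0251). They also included leaving out NC_sham replicate 3 (0.0458), CDAHFD_sham replicate 2 (0.0242) or CDAHFD_RIC replicate 1 (0.0385). For Hadhb, each sample left out here was among the highest of CDAHFD_sham or was the lowest of its own group. Leaving out such samples raises the interaction in itself.

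Hadha, the partner subunit, measured 36.4, 61.6, 40.8, 32.9 and 46.8 FPKM in CDAHFD_sham. In CDAHFD_RIC it measured 42.7, 68.4, 61.1 and 56.2 FPKM. The groups overlapped, and the difference of 0.39 (SE 0.17, 95% interval 0.04 to 0.74) did not pass (adjusted p = 0.0893, limma). It was 0.61 with an adjusted p of 0.0098 without CDAHFD_sham replicates 2 and 5. It also passed without CDAHFD_sham replicate 2 alone (adjusted p = 0.0164) or without CDAHFD_RIC replicate 1 (0.0376). For Hadha these were the highest samples of CDAHFD_sham and the lowest of CDAHFD_RIC, so leaving them out raises the difference in itself. Other settings under which it passed included median ratios (0.0307), quantile scaling (0.0402) and array weights (0.0408).

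On chow, Hadha measured 38.1, 44.4, 27.1, 37.5 and 38.9 FPKM in sham samples and 27.3, 32.7, 34.9, 29.8 and 35.1 FPKM with RIC. In RIC mice both subunits rose on CDAHFD without overlap of the groups, as for 53.3% of all tested genes. Hadha rose by 0.80 (SE 0.17, adjusted p = 0.000346, limma) and Hadhb by 0.62 (SE 0.18, adjusted p = 0.0044, limma). In sham mice neither passed, with differences of 0.21 for Hadha (95% interval -0.12 to 0.54) and -0.11 for Hadhb (95% interval -0.46 to 0.23).

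The ratio of Hadha to Hadhb, which library scaling cannot move, was higher on CDAHFD in sham mice. It was 0.839 ± 0.0309 in NC_sham (range 0.798 to 0.878) and 1.06 ± 0.0937 in CDAHFD_sham (range 0.956 to 1.16; SD), with no overlap. In an exact permutation test of the log2 ratio, two-sided, the difference was 0.33 with p = 0.00794, the smallest that 5 against 5 samples can give (adjusted p = 0.0317 over 4 comparisons). Without NC_sham replicate 4 the adjusted p was 0.0635. The ratio was 0.82 ± 0.0462 in NC_RIC and 0.941 ± 0.0994 in CDAHFD_RIC (SD), a log2 difference of 0.19 (exact permutation p = 0.0397, adjusted p = 0.0794). Leaving out 1 sample at a time gave exact permutation adjusted p from 0.0357 to 0.143 for this difference in RIC mice. RIC against sham gave -0.17 on CDAHFD (exact permutation p = 0.103, adjusted p = 0.138) and -0.03 on chow (exact permutation p = 0.437).

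**Figure D2:**
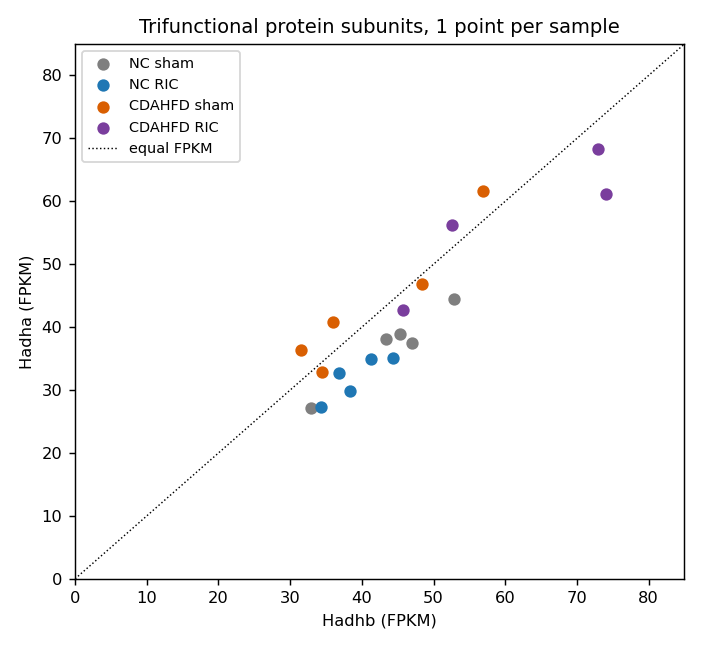
Hadha (vertical axis) against Hadhb (horizontal axis), both in FPKM, with 1 point per sample coloured by group and a dotted line of equal FPKM. All chow samples lie below the line, with ratios of at most 0.888, while CDAHFD_sham samples lie close to it or above, between 0.956 and 1.16.

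Hadha and Hadhb stand head to head on chromosome 5 and are transcribed away from each other, so the letters between them are upstream of both. In GENCODE M21 (GRCm38) Hadha lies at chr5:30118304-30155162 on the minus strand and Hadhb at chr5:30155248-30184593 on the plus strand. The 85 bases between the annotated genes, chr5:30155163-30155247, are shown because both subunits rose together in RIC mice while their ratio differed in sham mice. Acadl and Bdh1 are shown because they were called in both diet comparisons. Sequences are from RefSeq (GRCm38.p6), 5′ to 3′ on the strand of the named gene, within 250 bases before its start and outside annotated exons. Capitals mark the motifs AGGTCA, a nuclear receptor half-site, and GGGCGG, a GC box, on either strand.
Hadhb, chr5:30155163-30155247, plus strand: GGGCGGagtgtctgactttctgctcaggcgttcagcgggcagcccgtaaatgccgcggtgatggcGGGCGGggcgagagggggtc
Acadl, chr1:66863310-66863559, minus strand: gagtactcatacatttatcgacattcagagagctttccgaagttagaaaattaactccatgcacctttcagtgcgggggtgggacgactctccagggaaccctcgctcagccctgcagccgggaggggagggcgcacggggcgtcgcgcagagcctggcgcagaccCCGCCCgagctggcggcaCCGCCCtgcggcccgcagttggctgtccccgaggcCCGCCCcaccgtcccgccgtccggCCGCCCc
Bdh1, chr16:31422047-31422279, plus strand: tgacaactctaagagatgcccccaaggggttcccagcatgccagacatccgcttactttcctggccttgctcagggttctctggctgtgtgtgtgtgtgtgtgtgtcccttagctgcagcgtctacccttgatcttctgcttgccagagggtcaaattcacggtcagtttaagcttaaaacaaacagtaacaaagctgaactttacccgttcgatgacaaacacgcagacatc

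The shared stretch between Hadha and Hadhb holds 2 GC boxes, the Acadl stretch holds 4, and the Bdh1 stretch holds no letters of either motif. Over the 250-base upstream windows of the 8 genes (9 windows, since Bdh1 has 2 starts), 5 held GGGCGG, against 32.742% of 32851 mouse windows. The windows of Hadha and Hadhb, both among the 5, overlap by 228 bases and share 1 of these boxes. AGGTCA was in 2 of 9, those of Acadm and Acadvl, against 14.024% of all windows. The direct repeat AGGTCANAGGTCA, searched with up to 2 mismatches and overlapping AGGTCA, was in 0 of 9, against 3.236%. The window counts describe these letters only. In GENCODE M21 (GRCm38), Acadl lies at chr1:66830839-66863277, Acadm at chr3:153922357-153944632, Acadvl at chr11:70010183-70015411 and Cpt2 at chr4:107903981-107923610, all on the minus strand. Bdh1 lies at chr16:31422280-31458901 and Slc25a20 at chr9:108662088-108684641, both on the plus strand.

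Bdh1, the ketone body dehydrogenase, had the largest diet difference of the 8 genes in both comparisons. In NC_sham it measured 28.5, 29.2, 16.2, 31.8 and 28.9 FPKM, with replicate 3 the low sample. In CDAHFD_sham it measured 51.6, 55.8, 63.5, 54.1 and 53.7 FPKM. The groups did not overlap, and the difference was 1.05 (SE 0.14, 95% interval 0.75 to 1.36, adjusted p = 2.56e-06, limma).

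In NC_RIC, Bdh1 measured 23.2, 27.1, 27.7, 21.7 and 25.7 FPKM. In CDAHFD_RIC it measured 69.7, 73.2, 51.3 and 72.2 FPKM, with replicate 3 the low sample. It was 2.66-fold higher on CDAHFD (difference 1.37, SE 0.15, adjusted p = 3.1e-07, limma). Neither RIC difference passed: 0.24 on CDAHFD (95% interval -0.08 to 0.56, adjusted p = 0.248, limma) and -0.07 on chow (adjusted p = 0.86, limma). The ratio of Bdh1 to Acadm had means of 0.197 in NC_sham, 0.203 in NC_RIC, 0.36 in CDAHFD_sham and 0.368 in CDAHFD_RIC.

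Acadl and Bdh1 kept their higher call on CDAHFD under each of the 4 scalings tried. In sham mice Acadl lay between 0.34 and 1.05 and Bdh1 between 0.48 and 1.13 over the 10 settings, with adjusted p of at most 0.0217 and 0.00388. Under median-ratio scaling the other 6 genes were all called lower in CDAHFD_sham, from Slc25a20 at -0.33 to Hadhb at -0.69, where 30.5% of all tested genes were called lower. Hadhb was below 0 in each of the 10 settings, and the other 5 changed sign in at least 1 of them. In RIC mice, 3 of 8 were called under that scaling, Acadl and Bdh1 higher and Cpt2 lower, against 25.3% of all tested genes called higher and 24.6% called lower.

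**Figure D3:**
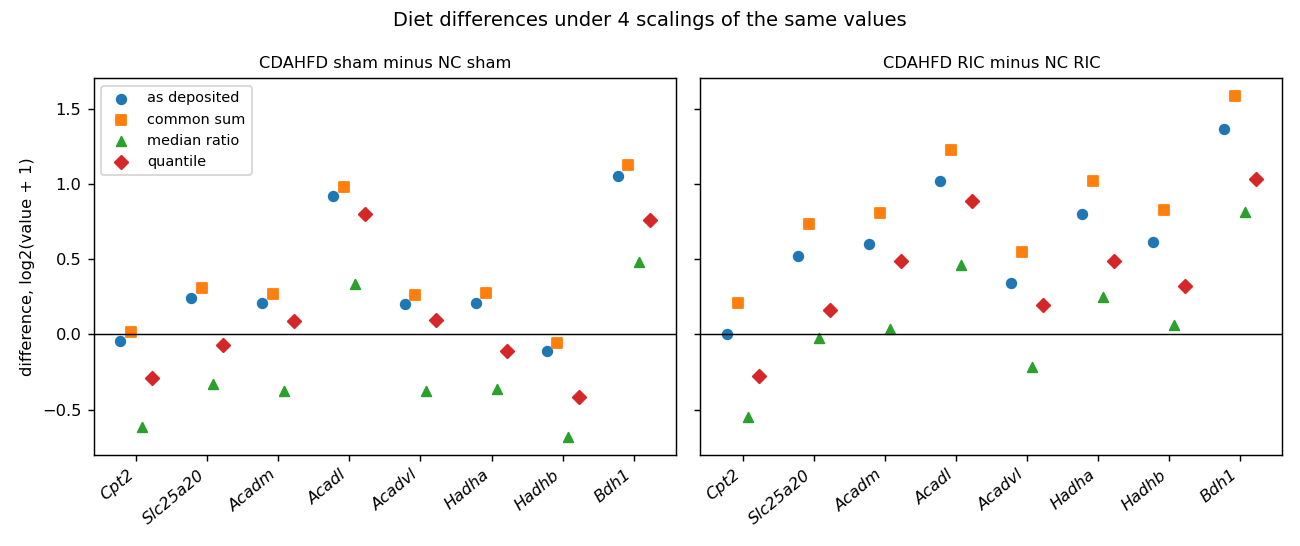
Difference between diets for each gene, in log2(value + 1), in sham mice (left) and RIC mice (right) with the deposited FPKM and 3 other library scalings, shown by marker shape. Acadl and Bdh1 are above 0 with every scaling, whereas the other 6 genes fall below 0 in sham mice with median-ratio scaling.

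Cell type markers moved with diet as well. All 8 macrophage markers rose in CDAHFD_sham, and their summed level went from 54.7 to 72.5 FPKM in NC_sham to 612 to 740.5 FPKM. The 6 stellate cell markers tested, of 7, also rose, with summed levels of 3.09 to 5.34 and 34.5 to 104.8 FPKM. Of 10 hepatocyte markers 8 fell, with summed levels of 42436 to 52955 and 32760 to 39206 FPKM. Over all tested genes 63.9% rose and 10.3% fell in this comparison. No marker of these 3 lists was at 0 in a whole group. Of 5 endothelial markers 4 rose as well, and so did the 2 cholangiocyte markers tested, of 4. The part of these shifts in the results for the 8 enzymes was not tested. In whole liver, fewer cells of a type and less RNA per cell cannot be told apart. Between CDAHFD_RIC and CDAHFD_sham, 2 of 8 macrophage markers were higher, 3 of 6 stellate cell markers were lower, and of 10 hepatocyte markers 3 were higher and 1 was lower. No endothelial or cholangiocyte marker was called there. Over all tested genes 8.72% were called higher and 18.6% lower.

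On chow, limma called none of the 8 genes with RIC, where 1.18% of all tested genes were called. At an unadjusted p under 0.05, 3 of the 8 were lower (Cpt2, Slc25a20 and Acadl), as were 12.9% of all tested genes. All 8 differences were negative as deposited, with a median of -0.19, against -0.06 over all genes, but those of Acadvl and Bdh1 were above 0 by median ratios, and those of Acadm, Acadvl and Bdh1 by quantile scaling. On CDAHFD the median of the 8 was 0.15, against -0.08 over all genes. The interaction was positive for all 8 as deposited, from 0.05 for Cpt2 to 0.73 for Hadhb, with a median of 0.30 against -0.03, but Cpt2 and Acadl turned negative without CDAHFD_sham replicates 2 and 5. Limma called none of the 8 interactions, against a background of 6.72%. At an unadjusted p under 0.05, 2 were positive (Hadha and Hadhb), as were 11.1% of all tested genes.

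**Figure D4:**
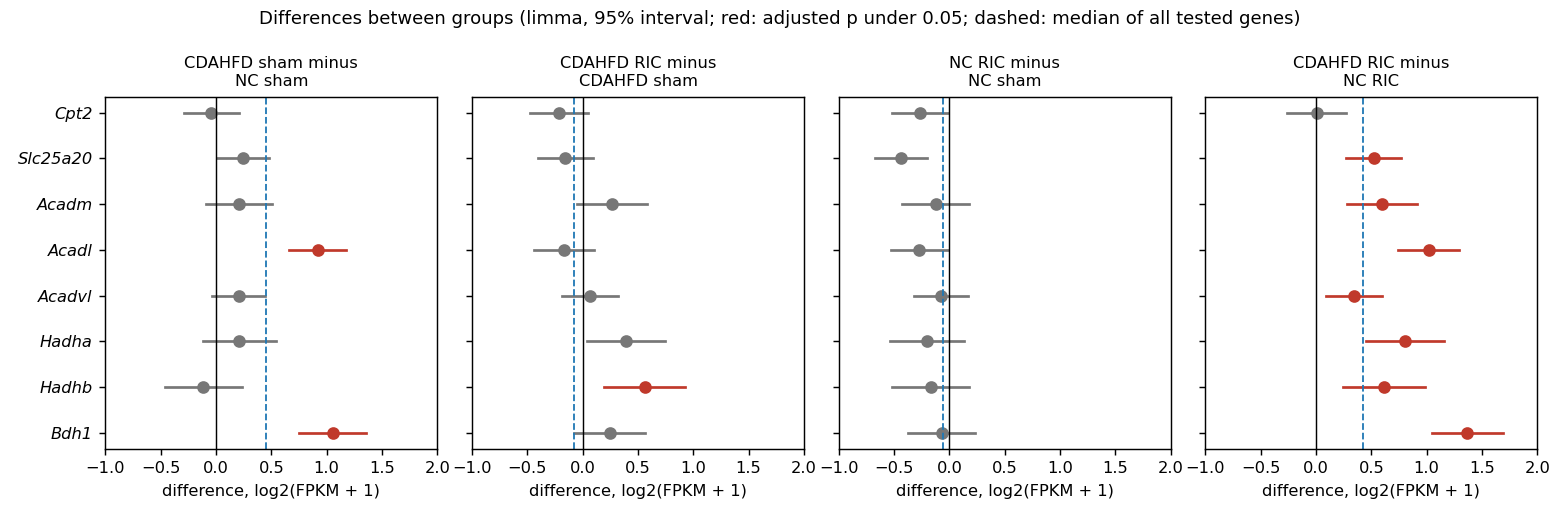
Difference of each gene in log2(FPKM + 1) with its 95% interval in the 4 comparisons of 2 groups; red marks an adjusted p under 0.05 and the dashed line is the median of all 10577 tested genes. In sham mice 2 intervals are red, in RIC mice 7, and with RIC on CDAHFD 1. Of all tested genes 63.9%, 63.6% and 8.72% were called higher in these comparisons.

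The sum of the 8 genes per library is taken from the deposited values and so depends on library scaling. The acyl-CoA dehydrogenases, with the highest FPKM, weigh most in it, so it does not show a change shared by all 8. The sum was 585 ± 70.5 FPKM in NC_sham, 516 ± 53.8 in NC_RIC, 760.5 ± 46.4 in CDAHFD_sham and 816 ± 134 in CDAHFD_RIC (SD). CDAHFD_RIC replicate 1 had the lowest sum of its group, 616 FPKM, and was lowest for every gene but Bdh1. CDAHFD_sham replicates 2 and 5 had the highest Acadm, Acadvl, Hadha and Hadhb of their group and the lowest Cpt2 and Acadl, so the 8 genes did not vary together within that group.

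The lists that follow place the 8 enzymes among other genes of the pathway, and like the 8 they were chosen by function. Their counts are to be read against the shares of all tested genes. With RIC on CDAHFD 8.72% were called higher and 18.6% lower, between diets in sham mice 63.9% and 10.3%, between diets in RIC mice 63.6% and 6.68%, and with RIC on chow 1.18% in either direction. Of 12 entry and activation genes, 7 rose and none fell in CDAHFD_RIC against CDAHFD_sham, with a median of 0.38 against -0.08 over all genes. Cpt1a, the outer-membrane carnitine acyltransferase that controls entry, was 74.4 ± 5.48 FPKM in CDAHFD_sham and 101 ± 12.3 in CDAHFD_RIC, a rise of 0.43 (adjusted p = 0.00557, limma). On chow it was 60.4 ± 5.76 and 42.0 ± 4.75 FPKM and fell with RIC by 0.52 (adjusted p = 0.0182, limma). The interaction for Cpt1a was 0.95 (adjusted p = 0.000931, limma). For comparison of diets in sham mice, 6 of the 12 rose and 5 fell. Cd36, a fatty acid uptake receptor that macrophages also express, was 14.0 ± 4.24 FPKM in NC_sham and 105 ± 29.3 in CDAHFD_sham, a difference of 2.83 (adjusted p = 3.28e-09, limma). Acsl1, an acyl-CoA synthetase, went the other way and fell by 2.17 (adjusted p = 1.21e-07, limma), from 88.7 ± 19.1 to 19.9 ± 7.42 FPKM.

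Malonyl-CoA inhibits entry, and Acacb makes it at the outer membrane. Acacb was 3.86 ± 0.762 FPKM in NC_sham, 2.23 ± 0.194 in NC_RIC, 1.07 ± 0.227 in CDAHFD_sham and 2.63 ± 0.518 in CDAHFD_RIC. It fell on CDAHFD in sham mice by 1.23 (adjusted p = 1.27e-08, limma) and rose with RIC on CDAHFD by 0.80 (adjusted p = 0.00018, limma). Among the 7 malonyl-CoA control genes, 5 rose and 1 fell between diets in sham mice, and 2 rose with RIC on CDAHFD. On chow 1 of the 7 fell with RIC, where 1.18% of all tested genes were called.

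Of 17 other enzymes of matrix oxidation, 7 rose and 4 fell on CDAHFD in sham mice, with a median of 0.03 against 0.45 over all genes. Among those that rose was Acot2, a matrix thioesterase that releases free fatty acid from acyl-CoA, at 11.8 ± 5.30 FPKM in NC_sham and 57.5 ± 15.6 in CDAHFD_sham (difference 2.26, adjusted p = 3.78e-07, limma). Acot9, another mitochondrial thioesterase, rose by 2.41 (adjusted p = 3.78e-13, limma). With RIC on CDAHFD 6 of the 17 rose and none fell, and on chow none was called. Of 3 genes of the electron transfer flavoprotein system, which takes electrons from the acyl-CoA dehydrogenases, 1 rose on CDAHFD in sham mice. This was Etfb, by 0.39 (adjusted p = 0.011, limma), less than the all-gene median of 0.45.

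Of 9 further ketone body genes, 4 rose and 1 fell on CDAHFD in sham mice, and in RIC mice 6 rose and 2 fell. Oxct1, which starts ketone body use and is low in hepatocytes, was 0.666 ± 0.170 FPKM in NC_sham and 4.36 ± 0.899 in CDAHFD_sham (difference 1.67, adjusted p = 2.5e-09, limma). The monocarboxylate transporter genes rose too: Slc16a6 was 3.11-fold higher (adjusted p = 1.78e-07, limma) and Slc16a7 1.83-fold higher (adjusted p = 1.17e-05, limma). With RIC on CDAHFD 1 of the 9 rose, and none was called on chow.

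Of 12 regulators of the pathway, 10 passed the filter on low values and were tested. Of these, 5 rose and none fell with RIC on CDAHFD, where 8.72% of all tested genes were called higher. Ppara, which encodes the fasting receptor PPARalpha, was 17.0 ± 2.98 FPKM in NC_sham, 16.4 ± 3.23 in NC_RIC, 7.35 ± 2.53 in CDAHFD_sham and 20.7 ± 5.90 in CDAHFD_RIC. It fell on CDAHFD in sham mice by 1.14 (adjusted p = 4.22e-05, limma), rose with RIC on CDAHFD by 1.38 (adjusted p = 0.000265, limma) and had an interaction of 1.42 (adjusted p = 0.00779, limma). Ppargc1a, a coactivator of oxidative genes, was 2.69 ± 0.634 FPKM in CDAHFD_sham and 7.09 ± 2.52 in CDAHFD_RIC, a rise of 1.09 (adjusted p = 0.00173, limma). Sirt3, a mitochondrial deacetylase, rose by 0.41 (adjusted p = 0.00351, limma).

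A list of 10 genes known to respond to fasting, some of them through PPARalpha, was also counted, since the feeding state at harvest is not given. Of the 10, 3 rose and none fell with RIC on CDAHFD (median 0.60), where 8.72% of all tested genes were called higher. On chow 1 fell with RIC, and in sham mice 1 rose and 6 fell on CDAHFD. Pdk4, which restrains pyruvate oxidation in fasting, was 22.2 ± 18.1 FPKM in NC_sham, 6.50 ± 3.52 in NC_RIC, 12.1 ± 4.79 in CDAHFD_sham and 54.6 ± 23.5 in CDAHFD_RIC. The part of feeding state in the values of the 8 enzymes was not tested.

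**Figure D5:**
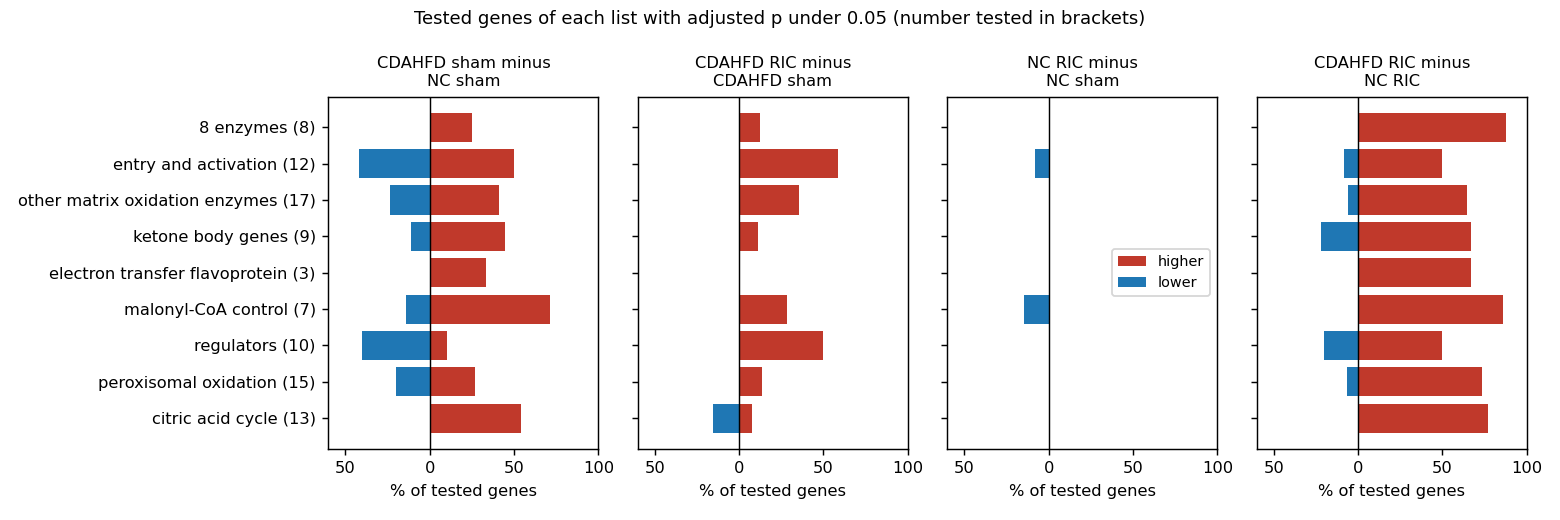
Percent of tested genes of each list called higher (red, to the right) or lower (blue, to the left) in the 4 comparisons of 2 groups, with the number tested in brackets. With RIC on CDAHFD, 7 of 12 entry and activation genes and 1 of the 8 enzymes are called higher, as are 8.72% of all tested genes.

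The genes whose pattern over the 19 samples lay closest to the mean pattern of the 8 were sought among the other tested genes, by the root-mean-square difference of centred log2(FPKM + 1). The closest 5 were Hacd3 (0.0978), Optn (0.101), Ctnnbl1 (0.11), Tor1a (0.114) and Suclg1 (0.118). The 8 enzymes themselves lay from 0.111 (Acadm) to 0.406 (Bdh1) from that mean, so it stands for some of them poorly. The points share the 19 libraries and their scaling.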

How the data were processed

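Total RNA of mouse liver was extracted with Trizol and made into the 19 libraries with a VAHTS Universal kit, per the labels' protocols. The authors deposited 1 table of FPKM values per gene for all samples. The submitters' processing notes name FastQC 0.11.9, Trimmomatic 0.38, HISAT2 2.2.1, HTSeq 0.13.5, R 3.4.1, DESeq2 1.18.1 and mm10, without their roles. The tool that made the FPKM, the annotation and the strand setting are not given in the sources used here. Without strand, reads of overlapping genes cannot be told apart.

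Entries without a name, 0.123 to 0.204% of the FPKM, were left out. The filter kept 10577 genes (mean over all samples not below 1 FPKM), and log2(FPKM + 1) was fitted with limma 3.58.1 in R 4.3.3 (1 mean per group, 15 residual degrees of freedom, trended prior, two-sided, Benjamini-Hochberg over all tested genes). The code was tested on simulated data. Fold values are ratios of group mean FPKM. Differences are on the log2(FPKM + 1) scale, which understates the change of low genes. The Hadha to Hadhb ratio used an exact permutation test. Positions are from GENCODE M21. The members and gene lists were chosen with earlier results of these data known. Named genes are all 8 members, up to 3 genes per list with the smallest p, and Cpt1a, Ppara, Ppargc1a and Pdk4. Alternatives changed the pseudocount, filter, scaling, samples fitted, replicate block, array weights and samples left out. 1 gene that this rule names is not reported here.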

Additional observations from a re-analysis of the deposited data

Results flagged for a closer look

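In 2 groups, the lowest sample's gap to the next, as a share of the group's range, was above Dixon's 95% critical value, both for Bdh1. NC_sham replicate 3 measured 16.2 FPKM, where the gap was 0.79 of the range, and CDAHFD_RIC replicate 3 measured 51.3 FPKM, where it was 0.842. Of 32 groups examined (8 genes in 4 groups), chance would be expected to mark about 1 in 20. NC_sham replicate 3 was also the lowest of its group for Slc25a20, Acadm, Acadl, Acadvl, Hadha and Hadhb.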

How the results depend on the processing

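Genes called over the whole table, as deposited, numbered 7852 between diets in sham mice, 2886 for RIC on CDAHFD, 125 for RIC on chow, 7435 between diets in RIC mice and 711 for the interaction. With no filter they numbered 12361 between diets in sham mice and 48 for RIC on chow. With a mean of at least 5 FPKM they numbered 3562, 3401 (diets in sham and in RIC mice), 1480 (RIC on CDAHFD) and 386 (interaction). In fits of only the 2 groups they numbered 1868 for RIC on CDAHFD and 46 on chow. For RIC on chow, quantile scaling gave 59, the replicate block 79 and array weights 401. Without CDAHFD_sham replicates 2 and 5 the interaction gave 1266. Leaving out 1 replicate gave 13 to 184 for RIC on chow (13 without NC_sham replicate 2) and 438 to 1042 for the interaction (1042 without CDAHFD_sham replicate 2). Common-sum scaling brought the share of interaction calls that were higher from 53.4% to 83.0%, and of RIC calls on CDAHFD from 31.9% to 56.8%.

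Members called between diets in sham mice went from 2 to 8 by median ratios, with 2 higher and 6 lower, where 30.5% of all tested genes were called in each direction. In RIC mice they went from 7 to 3 by median ratios, where 25.3% of all were higher and 24.6% lower, and to 4 by quantile scaling, all higher, as 24.1% of all were. For RIC on CDAHFD they went from 1 to 0 with no filter or only the 2 groups, and to 2 by median ratios, quantile scaling, the replicate block, array weights, or without CDAHFD_sham replicates 2 and 5. For RIC on chow they went from 0 to 1 with at least 5 FPKM or array weights. For the interaction they went from 0 to 1 with the replicate block, and to 2 with array weights or without CDAHFD_sham 2 and 5. Leaving out 1 replicate gave 0 to 3 for RIC on CDAHFD, 0 to 1 on chow and 0 to 2 for the interaction. The Hadha to Hadhb difference ranged over 0.30 to 0.37 between diets in sham mice and 0.13 to 0.26 in RIC mice. The cause was not tested.

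Directions turned as follows. Between diets in sham mice, Cpt2 was 0.0149 by common sum and 0.0373 without CDAHFD_sham 2 and 5. By median ratios Slc25a20 was -0.33, Acadm -0.38, Acadvl -0.38 and Hadha -0.36. By quantile scaling Slc25a20 was -0.0677 and Hadha -0.11, and without CDAHFD_sham 2 and 5 Hadha was -0.0073. For RIC on chow, Acadvl was 0.0092 and Bdh1 0.0114 by median ratios, and Acadm 0.0153, Acadvl 0.0593 and Bdh1 0.0395 by quantile scaling. In RIC mice between diets, Cpt2 was -0.55, Slc25a20 -0.0258 and Acadvl -0.22 by median ratios, and Cpt2 -0.28 by quantile scaling. The interaction without CDAHFD_sham 2 and 5 was -0.0319 for Cpt2 and -0.0271 for Acadl. Leaving out 1 replicate, Cpt2 ranged over -0.0759 to 0.0869 between diets in RIC mice and -0.0319 to 0.13 for the interaction. Of the members' 1152 refitted differences, 1083 kept direction and call.

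Same-numbered samples did not deviate together (correlations from -0.174 to 0.176), and 5 of 19 samples correlated best with their own number. With the replicate block, 38 of 40 member differences kept direction and call, and Hadha for RIC on CDAHFD (adjusted p = 0.0422, limma) and Hadhb for the interaction (adjusted p = 0.0424, limma) gained one. Depth limits little here: the counting error of any member was at most 3.04%, against a spread within groups that was larger.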

Other observations

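Genes of 2 neighbouring pathways were also measured. In the citric acid cycle, which burns the acetyl-CoA that beta-oxidation yields, 7 of 13 genes rose and none fell in CDAHFD_sham against NC_sham, where 63.9% of all tested genes rose and 10.3% fell (median 0.42, against 0.45 over all genes). Cs, the citrate synthase, was 9.95 ± 1.73 FPKM in NC_sham and 25.4 ± 3.20 in CDAHFD_sham, a difference of 1.28 (adjusted p = 3.52e-09, limma). It fell with RIC on CDAHFD by 0.58 (adjusted p = 0.00146, limma), to 16.6 ± 0.789 FPKM. Mdh2, the mitochondrial malate dehydrogenase, likewise rose by 1.34 on CDAHFD (adjusted p = 2.18e-09, limma) and fell with RIC on CDAHFD by 0.36 (adjusted p = 0.025, limma). Of the 13, 1 rose and 2 fell with RIC on CDAHFD, where 8.72% of all tested genes rose and 18.6% fell.

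Peroxisomes shorten very-long-chain fatty acids before mitochondria take them. Of 15 peroxisomal oxidation genes 4 rose and 3 fell on CDAHFD in sham mice (median -0.02), where 63.9% of all tested genes rose and 10.3% fell. In RIC mice 11 rose and 1 fell (median 0.35), near the shares of all tested genes, 63.6% and 6.68%. Abcd2, a peroxisomal importer of acyl-CoA, was 5.53-fold higher in CDAHFD_sham than in NC_sham (difference 2.06, adjusted p = 1.09e-07, limma). Scp2, a thiolase and sterol carrier, fell between the same groups from 1158 ± 199 to 703 ± 70.4 FPKM (difference -0.71, adjusted p = 2.05e-05, limma). With RIC on CDAHFD 2 of the 15 rose, and none was called on chow.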
